A study of Mus musculus with 29 samples.

Results

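The genes described here encode the aminoacyl-tRNA synthetases of mouse liver, the enzymes that load each amino acid onto its tRNA. They were taken by symbol from the table of counts per coding gene, by a rule that uses no measured value, and 36 of 22028 genes were found. Of these, 20 encode cytosolic enzymes and 16, whose names end in 2, encode mitochondrial enzymes. The RNA came from frozen liver or liver adenoma of the offspring of mouse dams. In the exposed arm the dams drank tributyltin (TBT), an organotin compound, during pregnancy and nursing. The 29 libraries were 7 adenomas at 10 months of age, TBT-exposed livers at 10 months (n = 5) and at 5 months (n = 5), and livers labelled VEH at 10 months (n = 6) and at 5 months (n = 6). VEH is taken to be the unexposed arm. Every adenoma is labelled TBT, and against VEH liver the effects of tumour and exposure cannot be told apart. The labels name no strain or allele. They do not state separate animals for the libraries, and p-values therefore measure only the spread between these samples.

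Cytosolic synthetases feed the ribosomes that translate nuclear genes, and mitochondrial ones feed the ribosomes inside mitochondria. The naming has exceptions. Eprs is a fused enzyme for glutamate and proline, Gars and Kars each give rise to a cytosolic and a mitochondrial enzyme, and Farsa and Farsb are the subunits of the cytosolic phenylalanine enzyme. When an amino acid runs short, uncharged tRNA activates the kinase GCN2, and translation of the transcription factor ATF4 rises. Many cytosolic synthetase genes are known targets of ATF4.

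The DNA element that ATF4 binds with a C/EBP partner, the amino acid response element, has the core TGATGNAA, or TTNCATCA when read on the other strand. RefSeq promoter windows on GRCm38.p6 (250 bases before to 50 after the annotated start) were found for 26 of the 36 members, 12 cytosolic and 14 mitochondrial. The core was present on either strand in 5 of the 12 cytosolic windows (41.7%), in 0 of the 14 mitochondrial ones, and in 4.51% of the windows of all 27025 genes. Windows were not found for Cars, Hars, Hars2, Lars, Mars, Nars, Pars2, Rars, Vars and Wars. The 5 promoters with the core are shown so that this element can be read beside the values of these genes in the comparisons that follow. Each line runs 5′ to 3′ on the gene's strand from 150 bases before to 30 after the start, and capitals mark the core.
Tars (chr15:11399629-11399808, minus strand): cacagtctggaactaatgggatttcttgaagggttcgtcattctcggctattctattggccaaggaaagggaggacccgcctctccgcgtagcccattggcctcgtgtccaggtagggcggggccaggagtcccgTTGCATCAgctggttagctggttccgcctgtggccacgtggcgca
Aars (chr8:111033692-111033871, plus strand): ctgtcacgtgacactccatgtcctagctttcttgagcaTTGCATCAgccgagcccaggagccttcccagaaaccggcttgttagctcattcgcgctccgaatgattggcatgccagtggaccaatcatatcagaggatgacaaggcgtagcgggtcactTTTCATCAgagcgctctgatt
Yars (chr4:129189753-129189932, plus strand): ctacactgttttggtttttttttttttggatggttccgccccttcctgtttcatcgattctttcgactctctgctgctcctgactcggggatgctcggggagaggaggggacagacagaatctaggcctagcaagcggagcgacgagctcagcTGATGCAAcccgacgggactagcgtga
Iars (chr13:49681980-49682159, plus strand): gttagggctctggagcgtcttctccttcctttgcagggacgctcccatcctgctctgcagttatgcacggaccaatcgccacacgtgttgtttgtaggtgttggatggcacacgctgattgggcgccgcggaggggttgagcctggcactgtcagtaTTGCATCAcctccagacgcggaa
Gars (chr6:55037851-55038030, plus strand): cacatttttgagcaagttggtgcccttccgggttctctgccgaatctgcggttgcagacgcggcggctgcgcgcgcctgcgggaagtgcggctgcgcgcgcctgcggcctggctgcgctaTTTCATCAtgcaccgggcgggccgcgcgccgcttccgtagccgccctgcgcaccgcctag
With the annotated start as base 1, the core began at base -15 in Tars, at -112 and 10 in Aars, at 4 in Yars, at 8 in Iars and at -30 in Gars. The E-box CACGTG, a binding site of MYC and of circadian factors, was present in the 300-base windows of Aars, Farsb, Iars, Tars and Ears2, against 8.09% of all windows. The NRF1 core CGCATGCG, read by a regulator of nuclear genes for mitochondria, was present in those of Vars2 and Wars2, against 2.07% of all windows. A match describes letters only.

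Levels are given as CPM, read counts relative to each library's scaled total. Between genes they are compared only per kilobase of annotated exon, which divides CPM by the gene's summed exon length. On that scale the cytosolic genes were the more abundant class in every group. In VEH liver at 10 months the median over the 20 cytosolic members was 11.3 CPM per kb, against 3.78 CPM per kb over 15 mitochondrial members without Lars2. Tars, the threonine enzyme, led that group with 41.1 ± 5.68 CPM per kb (SD, n = 6). Aars for alanine followed with 27.7 ± 3.03 CPM per kb and Nars for asparagine with 25.5 ± 2.67 CPM per kb, 2 neighbours that differ by less than their spread. Iars2 for isoleucine was the highest mitochondrial member at 11.7 ± 0.766 CPM per kb, and Mars2 for methionine the lowest of all at 0.366 ± 0.0735 CPM per kb. In the adenomas Nars and Tars stood first at 29.8 ± 5.23 and 29.5 ± 4.03 CPM per kb (SD, n = 7), and again did not differ beyond their spread.

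**Figure D1:**
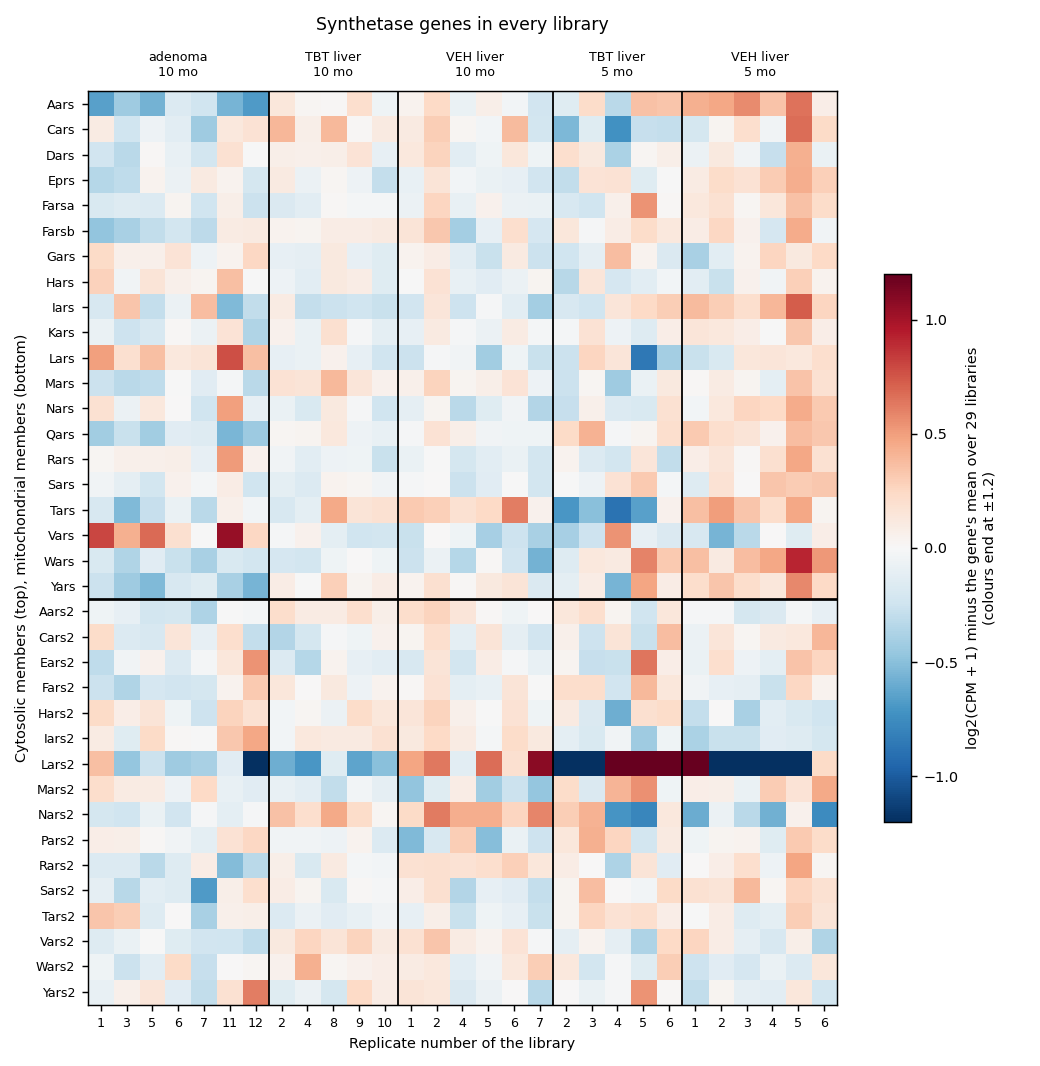
Rows are the 36 synthetase genes and columns the 29 libraries by group, and colour is log2(CPM + 1) minus the gene's own mean over all libraries. Lars and Vars are red in most adenomas, Tars is blue in 4 of the 5 TBT livers of 5 months, and Lars2 swings most between libraries.

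Total counts per library were 21920649 to 27563960 in the adenomas, 25973945 to 32850438 in TBT liver and 25714194 to 30362835 in VEH liver at 10 months. At 5 months they were 7513448 to 19270524 in TBT liver and 18603160 to 33704303 in VEH liver. The 5-month libraries were not uniform. The summed level of 4 proliferation markers was 41.5 and 73.7 CPM in TBT replicates 2 and 4 and 92.3 and 32.5 CPM in VEH replicates 4 and 6, against 3.71 to 10.0 CPM in the other 7 libraries of that age. TBT replicate 2 also carried 1701 CPM over 6 enterocyte markers, against 32.7 to 98.7 CPM in the others. Counts that rest on 5-month liver are therefore also given without these 4 libraries. Hepatocyte markers were abundant in every library, with sums of 56150 to 158600 CPM. In bulk tissue, fewer cells of a type and less RNA per cell cannot be told apart.

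At 5 months, Tars and Cars, the cysteine enzyme, were lower in TBT than in VEH liver, and 17 of the 20 cytosolic members had a negative log2 fold change. Over all 13055 genes tested, 6921 had a positive one. Tars (ENSMUSG00000022241, GRCm38 chromosome 15, 11382301 to 11399665) had 121, 140, 106, 126 and 205 CPM in TBT replicates 2 to 6, against a lowest of 203, a median of 252 and a highest of 281 CPM in VEH liver. Of the 5 TBT livers, 4 lay below every VEH liver, and the remaining one, replicate 6, was level with the lowest. The log2 fold change (log2FC) was -0.82, with SE 0.15 and an adjusted p of 0.0144 by edgeR's quasi-likelihood test. Cars (ENSMUSG00000010755, chromosome 7, 143557230 to 143600090) had 22.8, 30.4, 20.02, 27.7 and 27.5 CPM in TBT replicates 2 to 6, against 29.003, 36.6 and 54.1 CPM as the lowest, median and highest in VEH liver. Here too 4 of the 5 TBT livers lay below every VEH liver (log2FC -0.56, SE 0.15, edgeR adjusted p = 0.0488). In all, 3 of the 36 members were called, where 2.03% of the 13055 genes tested were. The 2 lower calls compare with 0.957% of genes called lower, and the single higher call, Lars2, with 1.07% called higher.

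The other cytosolic members did not pass the test. Over all 20 the median log2 fold change was -0.20, against a median of 0.02 over all genes tested. After Tars and Cars the lowest was Iars at -0.32, and Vars, the valine enzyme, was the highest at 0.16. Of the 15 mitochondrial members without Lars2, 10 had a positive value, where 6921 of all 13055 genes did. Their median was 0.11, and none was called. Among the 12 cytosolic genes with a promoter window, the 5 with the core had log2 fold changes of -0.82 (Tars), -0.32 (Iars), -0.31 (Aars), -0.26 (Yars) and -0.03 (Gars). The 7 without it ran between -0.25 (Eprs) and 0.01 (Farsb).

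The calls at 5 months rest on the whole liver fit. With the 5-month groups fitted alone, 0 members were called, where 0.0081% of all genes were, and Tars had an edgeR adjusted p of 0.178. Without the 4 libraries that stood apart, 0 were called, where 0.358% of all genes were. Tars then stood at -0.73 (edgeR adjusted p = 0.0565) and Cars at -0.43 (adjusted p = 0.254). Of 6 cholangiocyte markers 0 were called between the arms, although 4 had an unadjusted edgeR p under 0.05. Their sums were 25.1 to 357 CPM in TBT liver and 37.4 to 265 CPM in VEH liver. Of 2 tested enterocyte markers, 1 was called higher in TBT liver (edgeR adjusted p = 0.0352). Sums over all 6 were 32.7 to 1701 CPM in TBT liver, the highest being replicate 2, and 36.9 to 92.4 CPM in VEH liver. The part of these markers was not tested. Cars also lost its call when most single libraries were left out, in 19 of 22 fits, and Tars in 0.

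**Figure D2:**
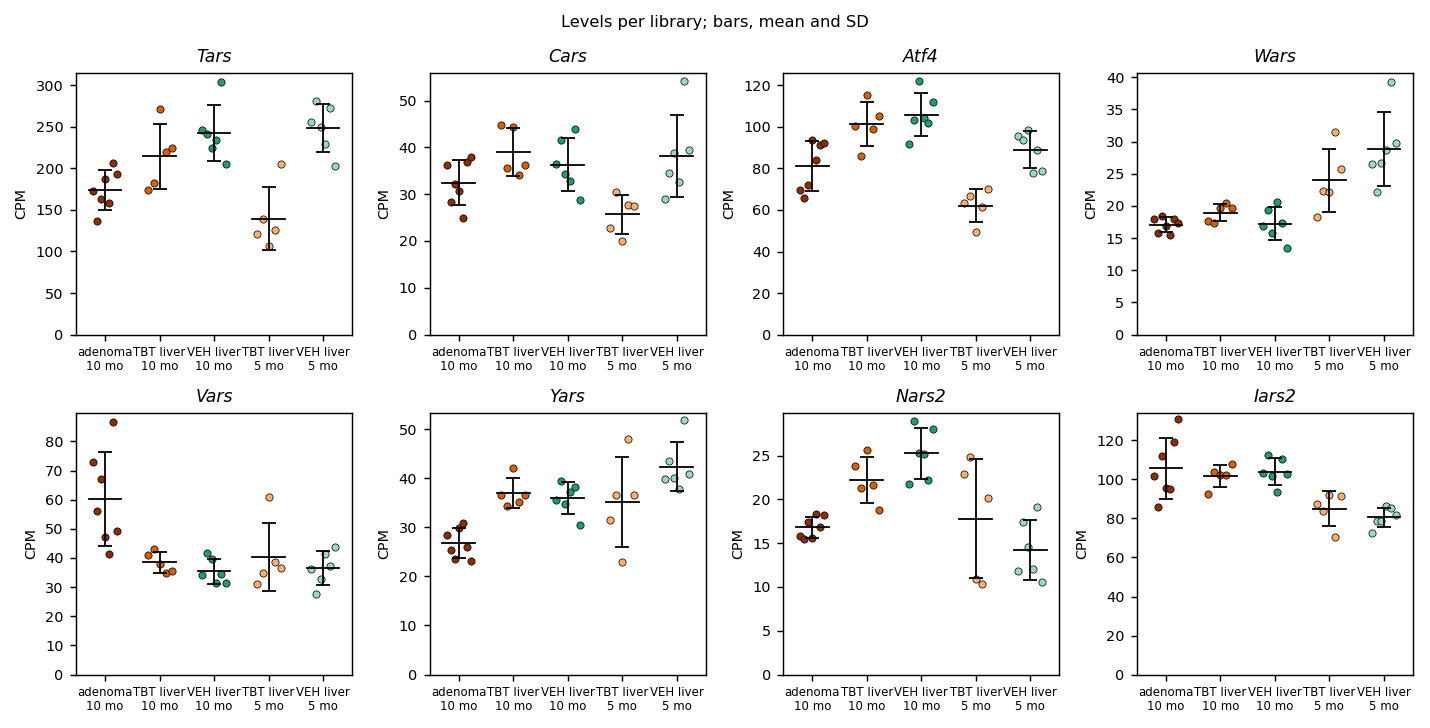
Each point is the CPM of one library for Tars, Cars, Atf4, Wars, Vars, Yars, Nars2 and Iars2, and bars give the mean and SD of each group. Tars, Cars and Atf4 are lower in TBT than in VEH liver at 5 months, Vars is higher and Yars and Nars2 are lower in adenoma, and Iars2 is higher at 10 than at 5 months in VEH liver.

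Atf4 itself was lower in TBT liver at 5 months. It had 63.5, 66.5, 49.2, 61.6 and 69.9 CPM in TBT replicates 2 to 6, against 78.0, 91.3 and 98.7 CPM as the lowest, median and highest in VEH liver, and the groups did not overlap. Its log2 fold change was -0.50 (SE 0.09, edgeR adjusted p = 0.015), and -0.49 (adjusted p = 0.0487) without the 4 libraries that stood apart. With the 5-month groups fitted alone its adjusted p was 0.178. Of the 30 listed genes of the amino acid response, 27 were tested, 0 rose and 2 fell, Atf4 and Cbs, the first enzyme of the transsulphuration route (log2FC -0.55, SE 0.14, edgeR adjusted p = 0.0359). Asns, asparagine synthetase and a classical ATF4 target, had 2.17, 12.3, 11.9, 3.29 and 1.73 CPM in TBT replicates 2 to 6, against 1.03, 4.17 and 19.9 CPM as the lowest, median and highest in VEH liver. These ranges overlap almost wholly (edgeR adjusted p = 0.974). None of 29 cytosolic translation factors, 10 mitochondrial translation factors, 7 synthetase cofactors or 7 genes of eIF2 kinases and phosphatase subunits was called. Of 10 Myc targets of ribosome making, 1 was called lower (edgeR adjusted p = 0.0379), where 0.957% of all genes were. The median log2FC over those 10 was -0.25.

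At 10 months no synthetase gene differed between TBT and VEH liver, as no gene of the 13055 did (0% called). Of the members, 1 had an unadjusted p under 0.05 by edgeR and 1 by DESeq2. That member by edgeR was Rars2, the mitochondrial arginine enzyme, with 11.2, 9.23, 11.5, 10.4 and 10.3 CPM in TBT replicates 2, 4, 8, 9 and 10, against 11.7, 12.2 and 13.1 CPM as the lowest, median and highest in VEH liver. The groups did not overlap, but the log2 fold change of -0.22 with SE 0.10 came with an edgeR adjusted p of 1. Tars had 173, 183, 271, 220 and 225 CPM in the same TBT livers, against 205, 238 and 304 CPM in VEH liver (log2FC -0.18, SE 0.15, adjusted p = 1). Nars2 had 23.8, 21.3, 25.6, 21.6 and 18.7 CPM there, against 21.8, 25.3 and 28.9 CPM in VEH liver, and its log2FC was -0.19 (SE 0.19, adjusted p = 1). The cytosolic median was 0.02. The change of the TBT effect between the ages was called for 0 members and for 0% of all genes. By unadjusted edgeR p under 0.05 it was 7 members, and by DESeq2 6, with 0 called by either. For Tars the interaction was 0.64, with SE 0.21 and an edgeR adjusted p of 0.367, so its effect at 5 months is not shown to differ from that at 10 months.

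Summed over the 20 cytosolic members, TBT liver at 5 months held 1299 to 1597 CPM and VEH liver 1663 to 2060 CPM, with no overlap. The 15 mitochondrial members without Lars2 summed to 299 to 344 CPM in TBT liver and to 287 to 338 CPM in VEH liver, which overlap. The ratio of the sums, which does not depend on library scaling, was 3.93 to 4.75 in TBT liver and 5.58 to 6.14 in VEH liver at 5 months. At 10 months it was 3.53 to 4.77 in adenoma, 4.19 to 4.93 in TBT liver and 4.11 to 4.62 in VEH liver. The 5-month VEH livers thus lay above all 23 other libraries, and the libraries that stood apart within that group, replicates 4 and 6, had 5.92 and 5.58. Without Tars the ratio was 3.56 to 4.35 in TBT liver and 4.77 to 5.29 in VEH liver at 5 months, and without Tars and Aars 2.86 to 3.50 and 3.64 to 4.11. These are descriptions of a sum over chosen genes and carry no test.

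**Figure D3:**
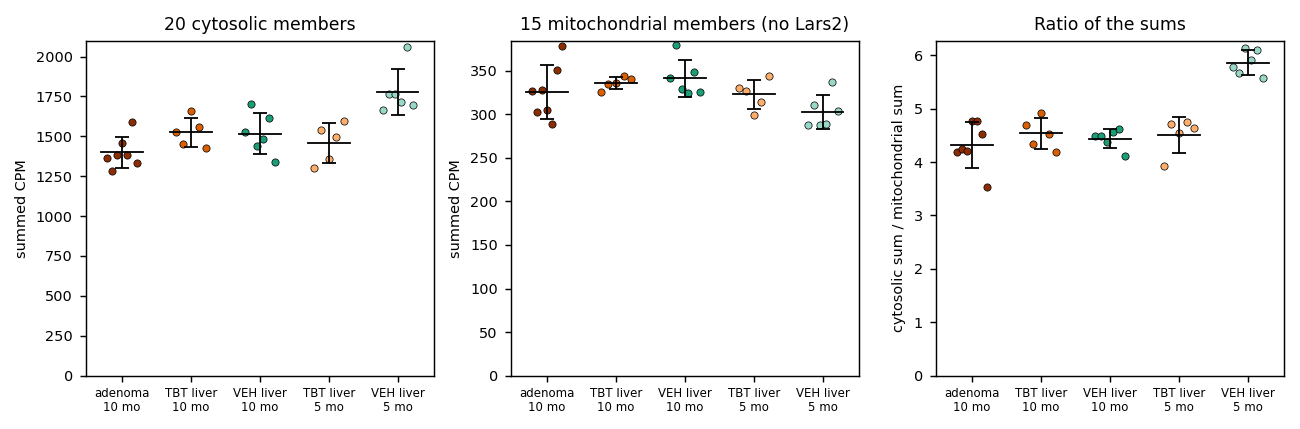
Points are libraries, with the mean and SD of each group, for the summed CPM of the 20 cytosolic members, of the 15 mitochondrial members without Lars2, and for the ratio of these sums. The ratio lies at 5.58 to 6.14 in VEH liver at 5 months and at 3.53 to 4.93 in the 4 other groups.

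Between 5 and 10 months, 8 of the 20 cytosolic synthetase genes fell in VEH liver. In all, 12 of the 36 members were called, where 19.2% of genes were. The 10 lower calls compare with 10.0% of genes and the 2 higher calls with 9.11%. All 8 cytosolic calls were lower at 10 months, and the cytosolic median log2 fold change was -0.21, against -0.04 over all genes tested.

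The strongest was Wars, the tryptophan enzyme (ENSMUSG00000021266, chromosome 12, 108860030 to 108894174), with 13.4, 17.1 and 20.6 CPM as the lowest, median and highest at 10 months and 22.1, 27.6 and 39.3 CPM at 5 months. The ages did not overlap (log2FC -0.76, SE 0.13, edgeR adjusted p = 0.000655). Iars, the isoleucine enzyme, had 25.0, 29.6 and 37.2 CPM at 10 months and 38.8, 42.7 and 56.1 CPM at 5 months, again without overlap (log2FC -0.56, SE 0.12, adjusted p = 0.0023). Aars (log2FC -0.44), Nars (-0.40), Eprs (-0.34), Rars for arginine (-0.33), Sars for serine (-0.30) and Qars for glutamine (-0.25) also fell. Tars and Cars, the genes called between the arms at 5 months, had -0.05 and -0.09 and did not pass. Among genes with the promoter core, Iars and Aars fell, while Tars, Gars (-0.12) and Yars (-0.25) did not pass. Among cytosolic genes with a window and no core, Eprs, Sars and Qars fell, and the others ran between -0.20 (Farsa) and 0.01 (Dars).

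Markers of division and of other cells moved with age in VEH liver. All 4 proliferation markers had negative values, with 1, Ccnb1, called lower and a median log2FC of -1.77, and their sums were 3.29 to 15.5 CPM at 10 months and 3.71 to 92.3 CPM at 5 months. Of 5 stellate cell markers 0 were called, although 4 had an unadjusted edgeR p under 0.05 and the median was -1.17, with sums of 171 to 310 CPM at 10 months and 262 to 569 CPM at 5 months. Of 4 endothelial markers, Lyve1 was lower, with sums of 142 to 178 CPM at 10 months and 108 to 199 CPM at 5 months. Their part in the synthetase values was not tested.

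The mitochondrial members divided. Nars2, for asparagine (ENSMUSG00000018995, chromosome 7, 96951505 to 97064758), rose, with 21.8, 25.3 and 28.9 CPM at 10 months and 10.5, 13.3 and 19.1 CPM at 5 months. The ages did not overlap (log2FC 0.81, SE 0.18, edgeR adjusted p = 0.00392). Iars2 also rose without overlap, with 93.5, 103 and 112 CPM at 10 months and 72.6, 80.4 and 86.2 CPM at 5 months (log2FC 0.35, SE 0.07, adjusted p = 0.00252). Mars2 (-0.55) and Sars2 (-0.34) fell. The cytosolic and mitochondrial enzymes of the same amino acid thus moved apart for asparagine and for isoleucine. Without the 4 libraries of 5 months that stood apart, 10 members were called, 7 cytosolic lower and 3 mitochondrial higher, where 17.8% of all genes were called. Sars, Mars2 and Sars2 were lost there and Hars2 was added. Mars2 was lost without VEH replicate 6 of 5 months alone, and Qars, Sars and Sars2 were called in 16, 17 and 13 of the 22 fits that left out 1 library. Wars, Iars and the other genes that were not named between the arms were chosen for these values.

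In TBT liver fewer members differed between the ages. At 10 months, 1 was higher, Tars, where 0.720% of genes were, and 1 lower, Lars2, where 1.06% were (1.78% in all). Tars had 173, 183, 271, 220 and 225 CPM at 10 months and 121, 140, 106, 126 and 205 CPM at 5 months, and the ages overlap (log2FC 0.59, SE 0.15, edgeR adjusted p = 0.0495). Without the 4 libraries that stood apart, 0 members were called, where 0.862% of all genes were. The call of Tars held in 3 of 22 fits with 1 library left out. Of 6 cholangiocyte markers, Krt19 and Epcam were lower at 10 months, with sums of 35.9 to 58.8 CPM at 10 months and 25.1 to 357 CPM at 5 months. Of 2 tested enterocyte markers, Cdhr2 was lower, with sums over all 6 of 50.8 to 129 CPM at 10 months and 32.7 to 1701 CPM at 5 months. The part of these markers was not tested. Atf4 rose, with 101, 86.1, 115, 99.1 and 105 CPM at 10 months, all above the 49.2 to 69.9 CPM of 5 months (log2FC 0.67, SE 0.10, adjusted p = 0.00193). The comparison of ages in TBT liver and that of the arms at 5 months share the 5-month TBT libraries. Whether the age change differs between the arms is the interaction given above, with 0 members called.

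Of the lists, the amino acid response had 4 of 27 tested genes lower and 0 higher at 10 months in VEH liver, Cbs, Eif4ebp1, Nupr1 and Slc7a1, where 10.0% of all genes were lower and 9.11% higher. Cytosolic translation factors had 8 lower and 2 higher of 29, and mitochondrial ones 2 lower and 1 higher of 10. The 10 Myc targets of ribosome making had 4 lower, Nolc1, Nop58, Fbl and Ncl, and 0 higher.

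In adenoma, 3 cytosolic members rose and 5 fell against VEH liver, and 1 mitochondrial member rose and 5 fell. In all, 14 of the 36 members were called, where 52.6% of the 13474 genes tested were. The 4 higher calls compare with 27.9% of genes and the 10 lower calls with 24.8%. The members were thus called higher less often than genes at large and lower about as often, with no test of the set. The cytosolic median log2 fold change was -0.07 and the mitochondrial median without Lars2 was -0.01, against 0.01 over all genes, and the members of each class ran from negative to positive values.

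The valine and leucine enzymes rose most. Vars (ENSMUSG00000007029, chromosome 17, 35000987 to 35016322) had 41.4, 56.2 and 86.7 CPM as the lowest, median and highest in the 7 adenomas, against 31.3, 34.4 and 41.6 CPM in VEH liver. All but replicate 7 lay above every VEH liver (log2FC 0.76, SE 0.14, edgeR adjusted p = 0.000196). Lars had 56.6, 66.4 and 89.1 CPM in adenoma, against 38.4, 46.3 and 51.1 CPM in VEH liver. The groups did not overlap (log2FC 0.55, SE 0.10, adjusted p = 0.000173). Rars had 31.1, 34.7 and 47.8 CPM in adenoma, against 28.4, 30.8 and 33.1 CPM in VEH liver, a smaller rise (log2FC 0.24, SE 0.08, adjusted p = 0.0209). Replicate 11 was the highest adenoma for all 3 genes.

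The alanine, tyrosine, threonine, glutamine and methionine enzymes fell. Yars, for tyrosine, had 23.0, 26.0 and 30.9 CPM in adenoma, against 30.4, 36.3 and 39.4 CPM in VEH liver. Of the 7 adenomas, 6 lay below every VEH liver (log2FC -0.42, SE 0.08, edgeR adjusted p = 0.000274). Aars had 159, 173 and 228 CPM in adenoma, against 218, 256 and 301 CPM in VEH liver, with 6 of 7 below every VEH liver (log2FC -0.47, SE 0.10, adjusted p = 0.000494). Tars had 136, 173 and 207 CPM in adenoma, against 205, 238 and 304 CPM in VEH liver (log2FC -0.48, SE 0.12, adjusted p = 0.00206). Qars (-0.35) and Mars (-0.29) fell as well, Qars in all 7 adenomas below every VEH liver. Of the 5 genes with the promoter core, Tars, Aars and Yars fell, while Gars (0.18) and Iars (0.08) did not pass the test. Of the 7 with a window and no core, Qars fell and the others ran between -0.22 (Farsb) and 0.04 (Sars).

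**Figure D4:**
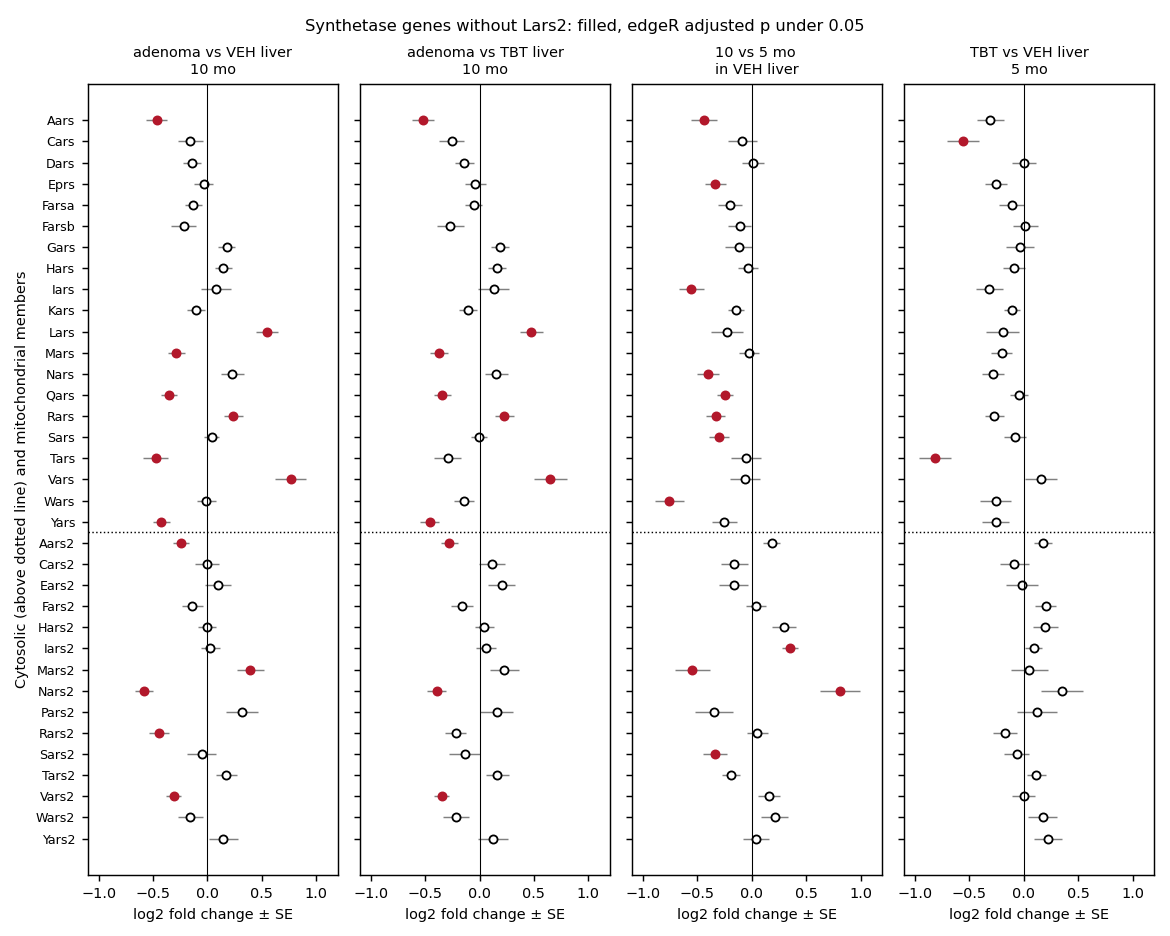
Points are log2 fold changes with SE for 35 members without Lars2 in 4 comparisons, the group named first over the second, and filled points passed an adjusted p of 0.05. Cytosolic calls go both ways in adenoma and all lie below 0 between 10 and 5 months in VEH liver and between TBT and VEH liver at 5 months.

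Among the mitochondrial enzymes, Nars2 had the smallest p. It had 15.4, 16.9 and 18.3 CPM in adenoma, against 21.8, 25.3 and 28.9 CPM in VEH liver, without overlap (log2FC -0.58, SE 0.08, edgeR adjusted p = 1.96e-05). Rars2 had 7.09, 9.31 and 11.3 CPM in adenoma, against 11.7, 12.2 and 13.1 CPM in VEH liver, also without overlap (log2FC -0.44, SE 0.09, adjusted p = 0.000472). For arginine the cytosolic gene thus rose and the mitochondrial one fell against VEH liver. Vars2, for valine, had 20.1, 22.5 and 25.0 CPM in adenoma, against 24.9, 27.6 and 31.8 CPM in VEH liver (log2FC -0.31, SE 0.07, adjusted p = 0.000881), while its cytosolic counterpart Vars rose. Aars2 fell with its cytosolic counterpart Aars, with 16.4, 20.1 and 21.6 CPM in adenoma, against 20.8, 22.9 and 26.2 CPM in VEH liver (log2FC -0.24, SE 0.07, adjusted p = 0.00993). Mars2 was the single mitochondrial member that rose, with 4.60, 5.57 and 6.28 CPM in adenoma, against 3.44, 3.88 and 5.56 CPM in VEH liver (log2FC 0.39, SE 0.12, adjusted p = 0.0129). Its cytosolic counterpart Mars fell.

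Against TBT liver of the same age, 10 members were called, where 44.7% of genes were. The 3 higher calls compare with 23.9% of genes and the 7 lower calls with 20.8%. All 10 were also called against VEH liver, but the comparisons share the adenomas. Vars had a log2 fold change of 0.65, Lars 0.47 and Rars 0.23. Aars (-0.52), Yars (-0.46), Mars (-0.37), Qars (-0.34), Nars2 (-0.40), Vars2 (-0.35) and Aars2 (-0.28) fell. Tars did not pass, with 173, 183, 271, 220 and 225 CPM in TBT liver (log2FC -0.29, SE 0.12, edgeR adjusted p = 0.0554). Rars2 (log2FC -0.22, SE 0.10, adjusted p = 0.0658) and Mars2 (0.23, SE 0.13, adjusted p = 0.163) did not pass either. The opposite moves of Rars and Rars2 and of Mars and Mars2 were thus called only against VEH liver. Rars in this comparison was lost without adenoma replicate 11, and without any 1 of the 5 TBT libraries.

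Of the 30 listed genes of the amino acid response, all tested, 10 rose and 1 fell in adenoma against VEH liver, where 27.9% of all genes rose and 24.8% fell. The share that rose is thus near that of all genes. The median log2FC over the list was 0.45, against 0.01 over all genes. The gene that fell was Atf4, with 65.6, 84.2 and 93.5 CPM in adenoma, against 91.8, 104 and 122 CPM in VEH liver (log2FC -0.38, SE 0.10, edgeR adjusted p = 0.00274). Slc7a1, a transporter of cationic amino acids, had 1.73, 2.65 and 3.51 CPM in adenoma, against 0.494, 0.691 and 0.965 CPM in VEH liver (log2FC 1.89, SE 0.22, adjusted p = 2.33e-06). Psat1, an enzyme of serine synthesis, had 1.15, 4.40 and 7.95 CPM in adenoma, against 0.403, 0.577 and 0.798 CPM in VEH liver (log2FC 2.83, SE 0.41, adjusted p = 1.86e-05). Slc7a11, the cystine transporter, had 2.01, 29.7 and 121 CPM in adenoma, against 0 to 0.0421 CPM in VEH liver. Nupr1, a stress-induced transcription regulator, rose too (log2FC 2.16, SE 0.38, adjusted p = 0.000112). Asns had 1.13, 3.83 and 10.7 CPM in adenoma, against 1.03, 1.98 and 2.64 CPM in VEH liver, and did not pass (log2FC 1.25, SE 0.69, adjusted p = 0.137). Against TBT liver 14 of the 30 genes rose and 2 fell, where 23.9% of all genes rose and 20.8% fell. Among synthetase genes with the promoter core, Tars, Aars and Yars fell against VEH liver, while Gars (0.18) and Iars (0.08) were not called. These are comparisons of groups, and a link between the synthetases and this list was not tested.

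Around the synthetases, cytosolic translation factors had 3 of 29 higher and 13 lower against VEH liver. Of all genes tested there, 27.9% were higher and 24.8% lower. Eif4a2, an RNA helicase of initiation, fell (log2FC -0.77, SE 0.09, edgeR adjusted p = 2.92e-06), as did Eif5 (-0.68) and Eif3a (-0.34), while Eif6, a factor of the large ribosomal subunit, rose (0.62). Of 10 mitochondrial translation factors, Mrrf (-0.23), the recycling factor, and Gfm2 (-0.27) fell and 0 rose. None of 7 synthetase cofactors was called. Of 7 genes of eIF2 kinases and phosphatase subunits, Eif2ak2 rose (0.40), and Ppp1r15b (-0.50) and Eif2ak1 (-0.35) fell. Among 10 Myc targets of ribosome making, Nop58 rose (0.61) and Npm1 fell (-0.20).

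Markers of other cells and of division moved with the same contrast. All 4 proliferation markers rose in adenoma, with sums of 10.9 to 147.5 CPM, against 3.29 to 15.5 CPM in VEH liver, and the lowest adenoma was replicate 7. All 6 cholangiocyte markers rose, with sums of 150 to 762 CPM against 37.0 to 53.3 CPM. Of 5 stellate cell markers, 3 rose and 1 fell, with sums of 348 to 628 CPM against 171 to 310 CPM. Of 5 Kupffer cell markers, 3 fell, with sums of 125 to 310 CPM against 249 to 391 CPM. Of 6 hepatocyte markers, 1 rose and 4 fell, with sums of 56150 to 108300 CPM against 102100 to 134800 CPM. Of 4 tested T and NK cell markers, 3 rose, with sums of 4.63 to 10.5 CPM against 2.54 to 3.57 CPM. Of 4 endothelial markers, Pecam1 and Lyve1 rose and Stab2 fell, with sums of 96.3 to 183 CPM against 142 to 178 CPM. Of 3 erythroid markers, 2 fell, with sums of 125 to 275 CPM against 212 to 485 CPM. Of 3 tested enterocyte markers, Vil1 (log2FC 5.22) and Cdhr2 (log2FC 4.75) rose, with sums over all 6 of 77.0 to 122 CPM against 67.5 to 116 CPM, while Alpi was at 0 in every library of both groups. The 1 tested exocrine pancreas marker was not called, with sums over all 6 of 12.4 to 112 CPM against 19.96 to 27.6 CPM, and Amy2a5 was at 0 throughout. The part of cell makeup in the synthetase values was not tested.

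Lars2, the mitochondrial leucine enzyme (ENSMUSG00000035202, chromosome 9, 123366927 to 123462666), varied far more than any other member. At 5 months TBT replicates 2 to 6 had 269, 237, 247457, 1677 and 8944 counts, or 13.3, 20.3, 26921, 240 and 701 CPM. Replicate 4 thus gave 3.19% of all its counts to this gene. VEH liver at 5 months had a lowest of 8.34, a median of 10.4 and a highest of 195 CPM, the highest being replicate 1. The log2 fold change of 6.86 (SE 1.57, edgeR adjusted p = 0.0312) became 2.28 (adjusted p = 0.195) without TBT replicate 4, and DESeq2 gave no adjusted p. The call was also lost without any of VEH replicates 2, 3, 4 or 5.

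At 10 months Lars2 was less scattered, with 44.6 ± 18.2 CPM in adenoma (SD, n = 7), 40.2 ± 6.74 CPM in TBT liver (n = 5) and 83.3 ± 24.1 CPM in VEH liver (n = 6). The 5 TBT livers had 37.7, 34.8, 51.7, 36.5 and 40.0 CPM in replicates 2, 4, 8, 9 and 10, all below the 52.2 CPM of the lowest VEH liver. The fit of the liver groups shares its spread with the 5-month libraries and gave -1.06 (SE 1.30, edgeR adjusted p = 1). In adenoma Lars2 fell against VEH liver (log2FC -0.90, SE 0.27, adjusted p = 0.0107; adjusted p = 0.498 with all 5 groups in 1 fit) and did not pass against TBT liver (0.16, SE 0.29, adjusted p = 0.687). Between the ages in TBT liver it was called lower at 10 months (log2FC -7.19, SE 1.73, adjusted p = 0.0432), and without TBT replicate 4 of 5 months it was -2.60 (adjusted p = 0.19). The summed level of 3 erythroid markers was 1134 and 1019 CPM in TBT replicates 5 and 6 and 997 CPM in VEH replicate 1 of 5 months, against 125 to 605 CPM in the other 26 libraries. Its part in the Lars2 values was not tested, and replicate 4, with the highest Lars2, had 605 CPM.

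**Figure D5:**
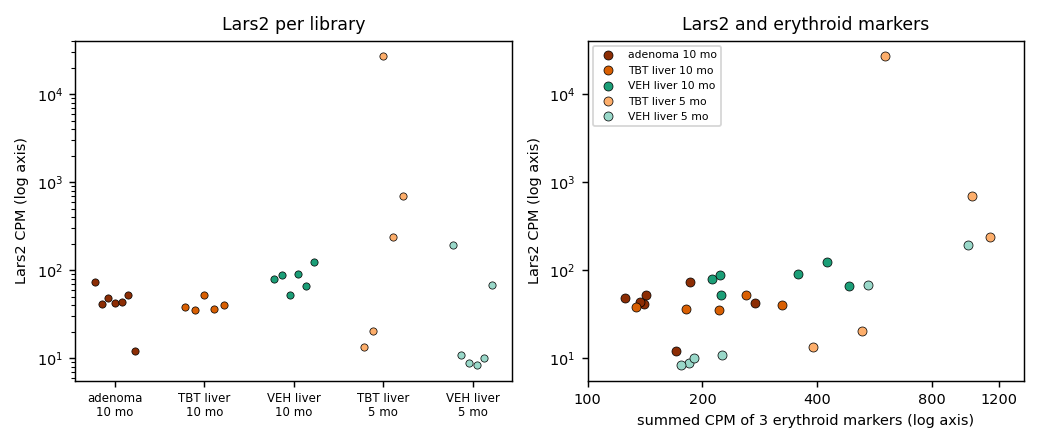
On the left, points are the CPM of Lars2 in each library on a log axis, and on the right the same values are set against the summed CPM of 3 erythroid markers, both on log axes. TBT replicate 4 of 5 months stands at 26921 CPM, and the 3 libraries with the highest erythroid sums have 195 to 701 CPM of Lars2.

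The exons of 10 members overlap those of another gene in the table, on GENCODE M21. They are Aars with Exosc6 on the same strand, and, on opposite strands, Farsb with Sgpp2, Hars with Hars2, Mars with Ddit3, Yars with C77080, Cars2 with Naxd, Ears2 with Ubfd1, Fars2 with Lyrm4 and Nrn1, and Iars2 with Rab3gap2. The kit kept strand but the strand setting of the counting is not given in the sources used here, so the values of these genes are uncertain. The same holds for Cars, Nars2 and Vars2, whose exons overlap, on the opposite strand, an annotated pseudogene or noncoding RNA outside the table.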

How the data were processed

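RNA of frozen liver or adenoma was extracted on columns with DNase, and stranded total RNA libraries were made, per the labels' protocols. The table deposited by the authors holds raw counts of reads for each coding gene. The submitters' processing notes list edgeR, FastQC, featureCounts, HISAT2 and Trim Galore and the build mm10. Their versions and the counting's strand setting were not given in the sources used here. In the table, 27 symbols stored as dates were restored from identifiers, and of identifiers sharing a symbol the one with most counts kept it. For 1 TBT library of 10 months the column's number, 9, was used in place of the title's.

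Counts were tested with edgeR 4.0.16 in R 4.3.3 (filterByExpr, minimum count 10 and total 15; TMM scaling; robust quasi-likelihood, two-sided; Benjamini-Hochberg over all genes tested, threshold 0.05). One fit held the 4 liver groups (22 libraries, 13055 genes) and another the 3 groups of 10 months (18 libraries, 13474 genes). All 36 members passed the filter. CPM of single libraries were scaled over all 29. Scaling factors were 1.03 to 1.26 in the adenomas and 0.866 to 0.963 in VEH liver of 10 months. The tests were checked on simulated counts. No libraries of a group were duplicates (71 pairs, lowest chi-square over its degrees of freedom 17.6).

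The rule for the members uses symbols alone, but this gene family and the lists were picked with earlier results of these data known. Library values are given for the 4 cytosolic and 4 mitochondrial members with the smallest p in adenoma against VEH liver, those called between the arms (or the 3 with the smallest p), those against their class, Lars2, Atf4 and Asns, and up to 4 genes of each list. Values of other genes were chosen after they were seen. Alternatives were other scaling, filters, DESeq2 1.42.0, a replicate block, other sets of fitted groups, Lars2 left out, and omission of libraries.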

Additional observations from a re-analysis of the deposited data

Results flagged for a closer look

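Of 180 sets of values, 1 per member and group, 10 had a library set apart from the rest of its group by a gap larger than the range of the others allows; chance sets apart about 1 in 20. At 5 months these were TBT replicate 4 for Lars2 (2.69e+04 CPM, others 13.3 to 701) and for Vars (60.8 CPM, others 31.2 to 38.6), TBT replicate 5 for Yars2 (23.1 CPM, others 14.7 to 15.8), VEH replicate 1 for Lars2 (195 CPM, others 8.34 to 67.3), and VEH replicate 5 for Iars (56.1 CPM, others 38.8 to 44.7) and Rars (46.2 CPM, others 33.5 to 38.1). At 10 months they were adenoma replicate 11 for Rars (47.8 CPM, others 31.1 to 35.0) and TBT replicates 8 for Gars (62.8 CPM, others 52.4 to 54.1), 2 for Iars (36.1 CPM, others 27.4 to 28.4) and 4 for Wars2 (8.36 CPM, others 6.04 to 6.33). In each case the library was the highest of its group.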

How the results depend on the processing

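Of 206 counts of called members under alternatives, 172 lay within 1.5 times the main count, or were 0 where that was 0. The main count was 0 for the arms at 10 months and for the interaction. There 0% of all genes were called, so those counts had little room to move. For TBT against VEH liver at 5 months (3 called), 0 were called with the compared groups alone or without 4 libraries that stood apart (TBT 2 and 4, VEH 4 and 6), and 1 to 3 when single libraries were left out. Tars was called in all 22 such fits, Cars in 3 and Lars2 in 17. For the ages in TBT liver (2 called), 0 were called with the compared groups alone, without a filter or without those 4 libraries, 3 with all 5 groups in 1 fit or by DESeq2, and 1 with Lars2 left out; omission of single libraries gave 0 to 4. For the ages in VEH liver (12 called) omission gave 8 to 14, for adenoma against VEH liver (14 called) 14 to 17 and against TBT liver (10 called) 9 to 13. Counts of 0 at 10 months and for the interaction stayed 0 in every alternative run. Over all genes, 265 were called between the arms at 5 months, against 591 by DESeq2, 1 with the compared groups alone and 17 with the block, and 232 between the ages in TBT liver, against 843 by DESeq2 and 0 with the compared groups alone; the interaction had 0, against 44 by DESeq2. Without those 4 libraries, 0.358% of all genes were called between the arms at 5 months and 0.862% between the ages in TBT liver. The cause of these differences was not tested. Of 1241 values of single called or named members, 1102 kept their side of the threshold, 139 lost it, and 0 changed sign. These include Rars2, Tars and Nars2 between the arms at 10 months, which had no call to lose.

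With the replicate number as a block, 0 members were called between the arms at 5 months, 3 between the ages in VEH liver (Iars, Nars2 and Wars), 0 between the ages in TBT liver, 8 in adenoma against VEH liver and 0 against TBT liver. In that order, the shares of all genes called with the block were 0.13%, 9.25%, 0%, 32.4% and 0.468%. Adenoma and TBT liver of 10 months share no replicate number, so the block leaves them no direct pair. Equal numbers did not deviate together throughout (correlations at 5 months 0.113 to 0.694 and, for replicate 6, -0.504). Libraries of unlike number were not set against each other, so these values cannot tell what a shared number means. The 4 shallowest of the 29 libraries were TBT livers of 5 months (from 7513448 counts), which limits the precision of low members there.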
